A study of Homo sapiens with 9 samples.

Results

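The genes described are 31 transcriptional targets of p53, the tumour suppressor that responds to DNA damage and oncogene stress, taken as the rows of the deposited expression table that carry their symbols. They are 31 of 19706 usable gene symbols in that table, and 30 of them were among the 13076 genes tested. PERP, which encodes a membrane protein of desmosomes and p53-dependent apoptosis, was too low in all 9 libraries to be tested. The p53 gene itself is not one of the rows analysed here. Polyadenylated RNA was sequenced from 3 human neuroblastoma cell lines with 3 libraries each. The lines were Kelly and BE(2)C, labelled as MYCN-amplified, and SH-SY5Y, labelled as not amplified. MYCN is the oncogene whose extra copies mark aggressive neuroblastoma.

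None of the lines received a drug, radiation or any other treatment, so every level below is that of growing cells, harvested before they were confluent. The comparisons ask how the target genes differ between each amplified line and SH-SY5Y, and between the amplified lines. BE(2)C and SH-SY5Y are cloned sublines of lines from single tumours, so each group is a line and not a sample of tumours. Only 1 line lacks the amplification, so an effect of MYCN copy number and a property of that line cannot be told apart. Nothing in the labels says that the 3 libraries of a line are separate cultures. The p-values therefore rest on the spread among these libraries alone, and that spread may be technical. General descriptions of the lines give mutated p53 in Kelly and BE(2)C and wild-type p53 in SH-SY5Y. The labels do not give p53 status, and it was not tested here.

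p53 binds DNA as a tetramer, at response elements built from a pair of decamers, and switches on genes for cell-cycle arrest, apoptosis, DNA repair and metabolism. Among its own targets are MDM2, whose protein sends p53 to the proteasome, and other brakes that close a negative feedback loop. CDKN1A encodes p21, which inhibits cyclin-dependent kinases and lets the DREAM complex repress cell-cycle genes. Neuroblastomas at diagnosis mostly keep wild-type p53, and losses of its function are better known at relapse.

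Levels are given as scaled TPM: transcript shares (TPM) over the gene entries alone, divided by a trimmed-mean factor for each library. Genes made up 9.34% to 16.2% of the deposited total and nearly all of the rest was synthetic ERCC spike-in RNA. The depth of the libraries is unknown, so no counting error can be given. All 11 neuroblastoma markers were expressed, with a sum of 7845 to 9240 scaled TPM per library for Kelly, 7399 to 8266 for BE(2)C and 6545 to 6676 for SH-SY5Y. The 11 markers of other cell types summed to between 4.19 and 11.7 scaled TPM in all 9 libraries, and CD3E, KRT5 and ALB were at 0 throughout. Not all housekeeping genes had plausible values, for example the chaperone gene HSPA8 at 1.91 ± 1.28 scaled TPM for Kelly, 11.7 ± 4.02 for BE(2)C and 3.98 ± 0.954 for SH-SY5Y (SD, n = 3 each). The tubulin gene TUBB averaged 29.6 ± 1.27 for Kelly, 24.5 ± 1.40 for BE(2)C and 0.230 ± 0.211 for SH-SY5Y. ACTB, at 2337, 2497 and 3165, and GAPDH, at 235, 239 and 120 in the same order, were not near 0. A value at or near 0 may thus be a failed estimate, also where it is confined to 1 line. Mitochondrial transcripts took 16.5% to 19.8% of the gene total for Kelly, 24.5% to 35.3% for BE(2)C and 17.2% to 18.0% for SH-SY5Y. Leaving these genes out changed no call of the 30 genes. The trimmed-mean factor was computed anew in that setting and takes up most of a changed total. It therefore could hardly show an effect of the mitochondrial share. In bulk RNA, fewer cells that use a gene and less RNA per cell cannot be told apart.

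Promoter sequence was read from RefSeq (GRCh38.p14) for 26 of the 31 genes, as 36 windows of 300 bases. RRM2B, GADD45A, TNFRSF10B, PHLDA3 and TP53INP1 had no entry. The p53 decamer, a palindromic pattern that covers both strands, was found in 6 of the 36 windows, 16.7%, against 2329 of 35116 promoters of that length, 6.63%. A pair of decamers at most 13 bases apart, the form of a full response element, was found in 1 of the 36 windows, that of DDB2, and in 10 of all promoters, 0.0285%. The 6 matches are shown because they are where the searched letters stand nearest to the start of a gene described here. Each is written 5′ to 3′ on the strand of the gene, with the decamer in capitals and up to 25 bases on each side, ending at the start of the gene or, for DDB2, showing the site alone. The distance given is that of the first base of the decamer from the RefSeq start. A match describes the letters and not binding.
PLK2, chr5:58460184-58460243, minus strand, from 132 bases before the start: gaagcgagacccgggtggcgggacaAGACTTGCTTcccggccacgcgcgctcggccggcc
SESN1, chr6:109009003-109009062, minus strand, from 49 bases before the start: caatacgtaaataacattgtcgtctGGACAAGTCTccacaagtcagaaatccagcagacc
DDB2, chr11:47214979-47214999, plus strand, from 5 bases after the start: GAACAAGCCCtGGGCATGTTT
RPS27L, chr15:63157502-63157561, minus strand, from 59 bases before the start: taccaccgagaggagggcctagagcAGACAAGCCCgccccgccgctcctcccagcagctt
AEN, chr15:88621281-88621339, plus strand, from 34 bases before the start: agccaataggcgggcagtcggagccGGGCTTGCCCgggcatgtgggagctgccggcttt
FDXR, chr17:74872995-74873030, minus strand, from 11 bases before the start: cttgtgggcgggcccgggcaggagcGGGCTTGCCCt

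On scaled TPM the p53 targets were mostly highest in Kelly, and BE(2)C was the line most often lowest. Their summed level was 1304, 1102 and 1145 scaled TPM in the Kelly libraries, 759, 829.1 and 761.7 in the BE(2)C libraries and 929.6, 915.8 and 917.8 in the SH-SY5Y libraries, with no overlap between lines. By line means, Kelly was the highest line for 20 of the 30 tested genes, 66.7%, against 31.4% of all genes tested. BE(2)C was the highest for 1 gene, 3.33% against 32.4%, and the lowest for 16, 53.3% against 35.2%. SH-SY5Y was the highest for 9 genes, 30% against 36.2% of all genes tested. This order moved with the scaling: Kelly was the highest line for 17 genes and SH-SY5Y for 12 with library totals alone, and Kelly for 12 and SH-SY5Y for 17 with values as deposited, while BE(2)C was the lowest for 22 in both. The median log2 fold change of all genes in BE(2)C against SH-SY5Y was then -0.44 and -0.35. The line order of all genes was not computed in those settings, so these counts have no background to be set against.

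Differences were tested with limma on log2(scaled TPM + 1) over all 13076 genes and called at a Benjamini-Hochberg adjusted p under 0.05, two-sided. In Kelly against SH-SY5Y, 12 of the 30 genes were called higher, where 28.1% of all genes were, and 5 were called lower, where 27.2% were. Their median log2 fold change was 0.35, against -0.0048 over all genes. In BE(2)C against SH-SY5Y, 7 were called higher, where 28.6% of all genes were, and 10 were called lower, where 30.7% were, with a median of -0.53 against -0.04 over all genes. In Kelly against BE(2)C, 19 were called higher, where 27.9% of all genes were, and 1 was called lower, where 24.6% were, with a median of 0.67 against 0.02. The 2 comparisons with SH-SY5Y share its libraries.

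The scaling of the libraries bears on these counts. With values as deposited, where the spike-ins stay in the total, 6 genes were called higher and 12 lower in Kelly against SH-SY5Y. Of all 13076 genes tested, 1324 were then called higher and 7457 lower. With library totals alone, and also with values as deposited, 1 gene was called higher in BE(2)C than SH-SY5Y, while 16 and 17 were called lower. Over all genes, 1905 were called higher and 6099 lower with library totals alone, and 1547 and 6639 as deposited. The count higher in Kelly than in BE(2)C ran from 13 to 25 under the same settings, and the count lower stayed at 1. Among the calls over all genes in that comparison, 74.2% were higher with library totals alone and 43.2% as deposited. The median over the 30 genes was 0.22, -0.84 and 0.91 in Kelly against SH-SY5Y, BE(2)C against SH-SY5Y and Kelly against BE(2)C with library totals alone. As deposited it was -0.26, -0.54 and 0.32, so the sign of the first median turned. The medians over all genes were -0.13, -0.44 and 0.31 with library totals alone and -0.43, -0.35 and -0.05 as deposited. In Kelly against SH-SY5Y the median of the 30 genes thus stayed above that of all genes in both settings.

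**Figure D1:**
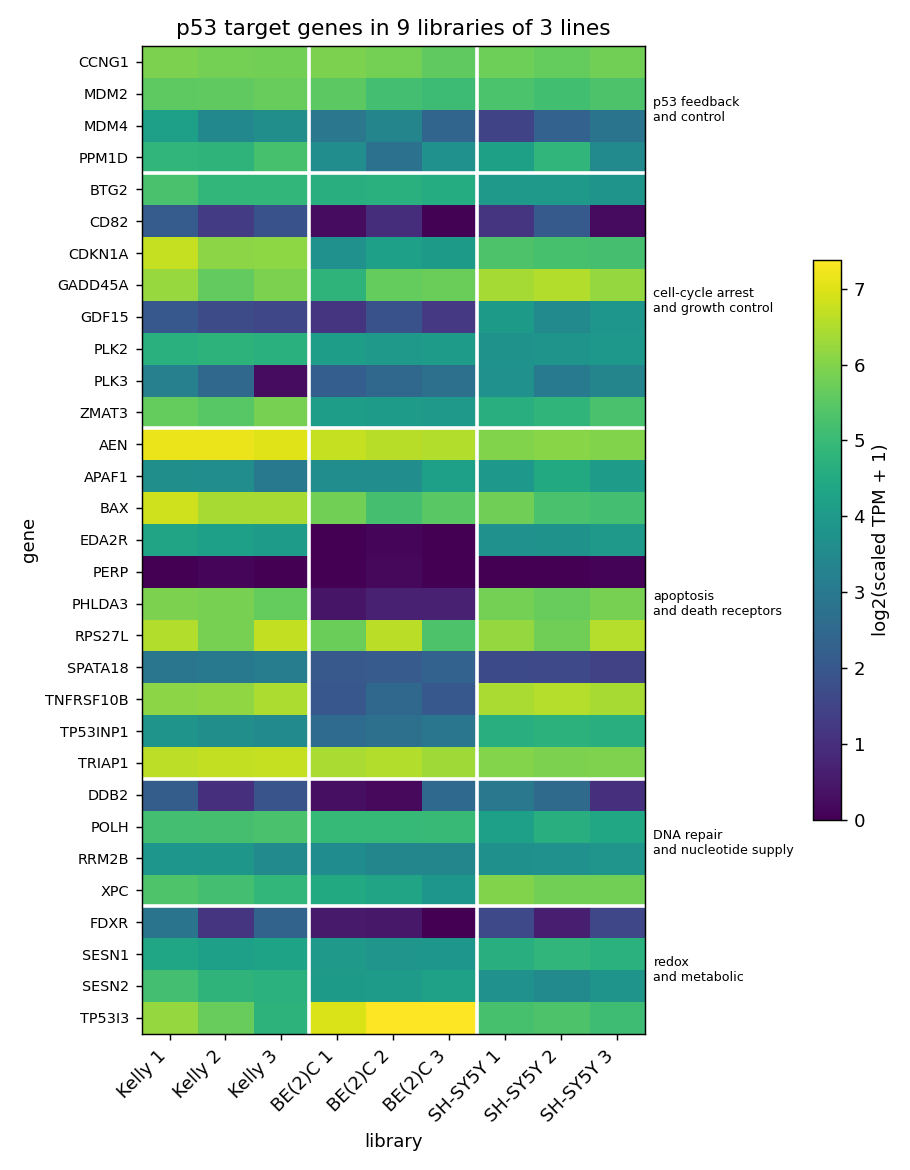
Level of each of the 31 genes (rows, grouped by role) in each of the 9 libraries (columns), as log2(scaled TPM + 1) on a colour scale. PHLDA3, EDA2R and TNFRSF10B are dark in the 3 BE(2)C libraries and light or intermediate in the others, TP53I3 is brightest in BE(2)C, and PERP is at or near 0 in every library.

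**Figure D2:**
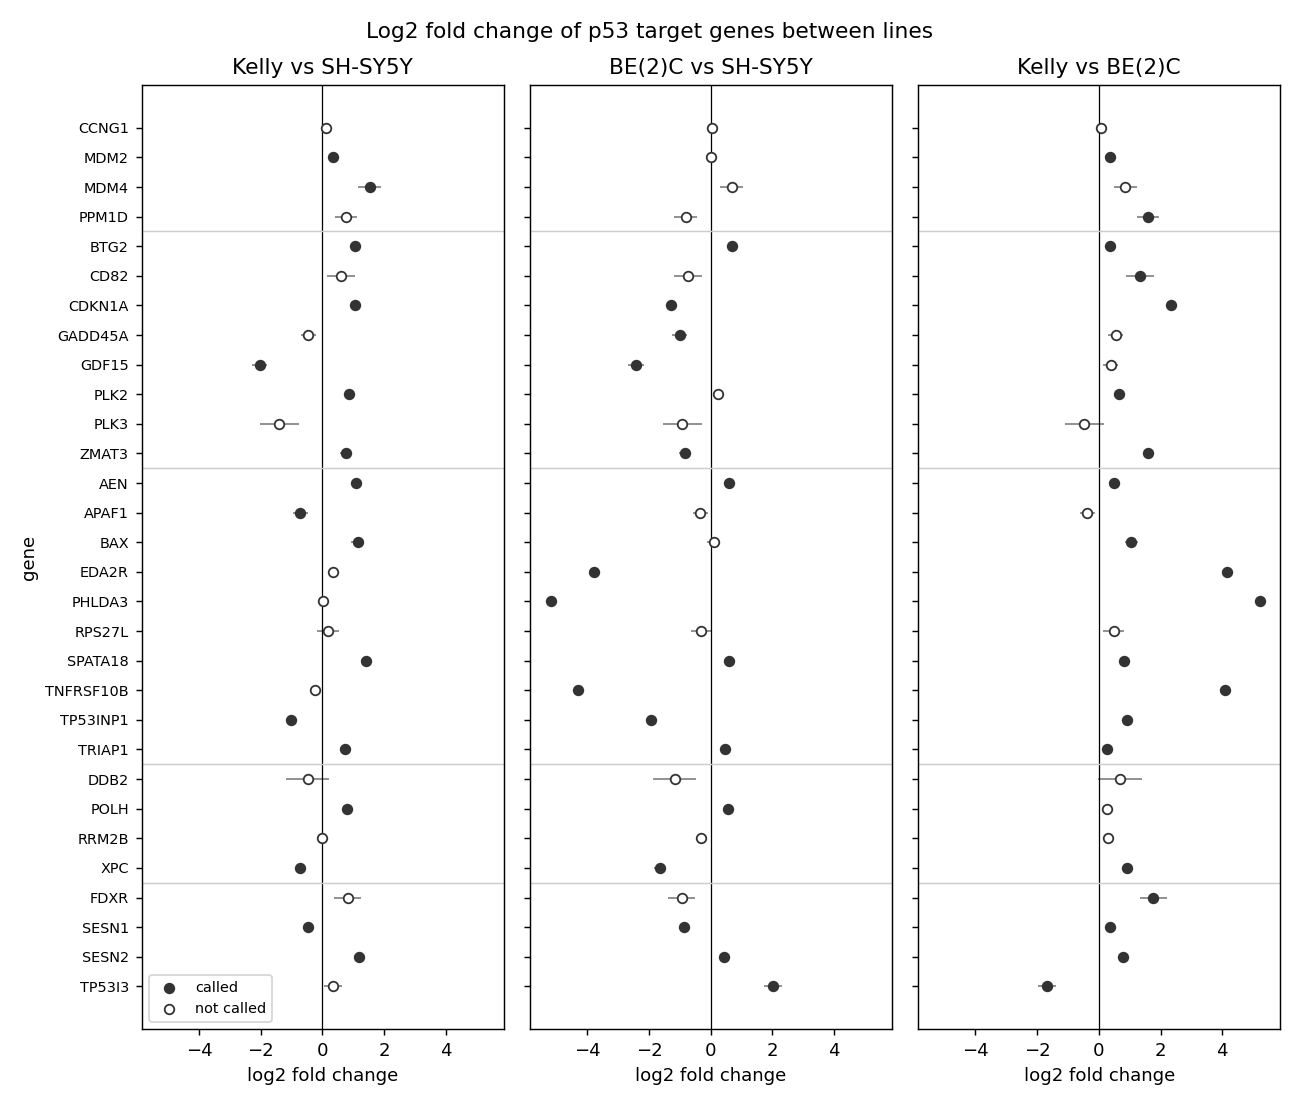
Log2 fold change with its standard error (points and bars) for the 30 tested genes in 3 comparisons; filled points passed the adjusted p threshold of 0.05 and open points did not. In the Kelly against BE(2)C panel, 19 filled points lie right of 0 and 1, TP53I3, lies left of it.

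Of the 4 genes that act on p53 itself as feedback, 2 were called higher in Kelly than in SH-SY5Y, none was called in BE(2)C against SH-SY5Y, and 2 were called higher in Kelly than in BE(2)C. The shares called higher were 50%, 0% and 50%, against 28.1%, 28.6% and 27.9% of all genes. None was called lower, against 27.2%, 30.7% and 24.6% of all genes. The role groups are small, so such shares only describe the genes in them. MDM2 encodes the ubiquitin ligase that degrades p53, and its level was 47.6 ± 2.04 scaled TPM for Kelly, 37.6 ± 6.57 for BE(2)C and 37.2 ± 2.64 for SH-SY5Y (SD, n = 3 each). Its 9 libraries ran from 32.6 to 49.8 scaled TPM. MDM2 was called higher in Kelly than in SH-SY5Y by 0.35 ± 0.12 on the log2 scale (adjusted p = 0.0365) and higher than in BE(2)C by 0.35 ± 0.12 (adjusted p = 0.0399). The first of these calls ended when any 1 of the 6 Kelly and SH-SY5Y libraries was left out (adjusted p = 0.0531 to 0.118) and with library totals alone (adjusted p = 0.268). The second ended without Kelly 1, 2 or 3, BE(2)C 2 or 3, or SH-SY5Y 1 or 3 (adjusted p = 0.0526 to 0.124). It also ended as deposited (adjusted p = 0.391) and with only the compared lines fitted (adjusted p = 0.073). Without the variance trend both calls ended (adjusted p = 0.0501 and 0.0541). With values as deposited MDM2 was -0.30 in Kelly against SH-SY5Y (adjusted p = 0.104), and in BE(2)C it was then called lower at -0.48 (adjusted p = 0.02). MDM2 shares 133 exon bases with CPM on the opposite strand, and the sources used here do not say whether the counting used strand.

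MDM4 encodes a relative of MDM2 that blocks the activation domain of p53. It had 17.0, 9.82 and 11.6 scaled TPM in the Kelly libraries, 6.65, 9.34 and 4.31 in the BE(2)C libraries and 1.87, 3.98 and 6.11 in the SH-SY5Y libraries. Every Kelly library was above every library of the other lines, while BE(2)C and SH-SY5Y overlapped. MDM4 was higher in Kelly than in SH-SY5Y by 1.53 ± 0.37 on the log2 scale (adjusted p = 0.00654), a call that held in all 19 alternatives run. Its difference of 0.85 ± 0.37 between Kelly and BE(2)C was not called (adjusted p = 0.0832), except without SH-SY5Y 1 (adjusted p = 0.0484) and with library totals alone (adjusted p = 0.022).

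PPM1D encodes the phosphatase WIP1, which removes activating phosphates from p53 and its kinases. It had 27.8, 26.9 and 36.6 scaled TPM in the Kelly libraries, 11.3, 5.78 and 12.3 in the BE(2)C libraries and 17.2, 28.2 and 10.3 in the SH-SY5Y libraries. The SH-SY5Y libraries were spread widely and overlapped both other lines, and Kelly and BE(2)C did not overlap. PPM1D was higher in Kelly than in BE(2)C by 1.59 ± 0.36 on the log2 scale (adjusted p = 0.00484). Against SH-SY5Y it was not called in Kelly (0.78, adjusted p = 0.0961) or in BE(2)C (-0.81, adjusted p = 0.079). Each of these became a call without 1 SH-SY5Y library, at 1.12 in Kelly without SH-SY5Y 2 (adjusted p = 0.0239) and at -1.16 in BE(2)C without SH-SY5Y 3 (adjusted p = 0.0179). PPM1D was also called lower in BE(2)C with library totals alone (-1.23, adjusted p = 0.0173) and as deposited (-0.935, adjusted p = 0.0124). CCNG1, the gene of cyclin G1, which works with a phosphatase to activate MDM2, ran from 46.8 to 60.2 scaled TPM over the 9 libraries and was called in no comparison. With values as deposited, CCNG1 turned to a call of -0.51 in Kelly and -0.45 in BE(2)C against SH-SY5Y. With library totals alone it was called at -0.395 in BE(2)C against SH-SY5Y (adjusted p = 0.0162). Kelly was then called higher than BE(2)C by 0.39 (adjusted p = 0.0194).

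Among the 8 genes of cell-cycle arrest and growth control, 4 were called higher and 1 lower in Kelly than in SH-SY5Y. In BE(2)C against SH-SY5Y, 1 was called higher and 4 lower, and in Kelly against BE(2)C 5 were called higher and none lower. The shares called higher were 50%, 12.5% and 62.5%, against 28.1%, 28.6% and 27.9% of all genes. Those called lower were 12.5%, 50% and 0%, against 27.2%, 30.7% and 24.6%. CDKN1A (chr6:36676460-36687339 in GENCODE 29, GRCh38) had 105, 67.3 and 68.6 scaled TPM in the Kelly libraries, 12.2, 17.0 and 15.2 in the BE(2)C libraries and 38.9, 36.8 and 35.8 in the SH-SY5Y libraries. The lines did not overlap, with Kelly highest and BE(2)C lowest. CDKN1A was higher in Kelly than in SH-SY5Y by 1.06 ± 0.18 on the log2 scale (adjusted p = 8.9e-04) and lower in BE(2)C than in SH-SY5Y by -1.28 ± 0.18 (adjusted p = 2.4e-04). The amplified lines thus differed from each other by 2.34 ± 0.18 (adjusted p = 7.1e-06). All 3 calls held in all 19 alternatives run.

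ZMAT3, which encodes a zinc-finger protein that binds RNA and restrains growth, had the same order of lines. It had 48.5, 43.0 and 56.8 scaled TPM in the Kelly libraries, 16.7, 15.8 and 14.7 in the BE(2)C libraries and 23.4, 27.2 and 37.4 in the SH-SY5Y libraries, with no overlap. The log2 fold change was 0.75 ± 0.17 in Kelly against SH-SY5Y (adjusted p = 0.00486), -0.84 ± 0.17 in BE(2)C against SH-SY5Y (adjusted p = 0.00237) and 1.59 ± 0.17 in Kelly against BE(2)C (adjusted p = 5.98e-05). The first of these was 0.05 with values as deposited and no longer called (adjusted p = 0.825). CDKN1A and ZMAT3 were the only 2 of the 30 genes called in opposite directions in the amplified lines against SH-SY5Y. The share of all genes called in this way was not computed, so this count has no background.

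BTG2, an antiproliferative gene whose protein speeds mRNA deadenylation, had 37.0, 28.4 and 28.5 scaled TPM in the Kelly libraries, 23.8, 24.9 and 22.6 in the BE(2)C libraries and 15.0, 15.0 and 13.2 in the SH-SY5Y libraries. Its lines were ordered without overlap, Kelly above BE(2)C above SH-SY5Y. BTG2 was higher than in SH-SY5Y by 1.06 ± 0.13 on the log2 scale in Kelly (adjusted p = 1.1e-04) and by 0.69 ± 0.13 in BE(2)C (adjusted p = 0.00147). The second of these was 0.25 with library totals alone (adjusted p = 0.141) and 0.11 as deposited (adjusted p = 0.414). The difference of 0.38 ± 0.13 between Kelly and BE(2)C was called (adjusted p = 0.036), and ended without Kelly 1 or BE(2)C 1, 2 or 3 (adjusted p = 0.0559 to 0.109). It also ended as deposited, with quantile normalization and with only the compared lines fitted (adjusted p = 0.198, 0.0597 and 0.0599).

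GDF15, a secreted member of the TGF-beta family that responds to stress, stood out in SH-SY5Y. It had 3.10, 2.22 and 2.00 scaled TPM in the Kelly libraries, 1.14, 2.62 and 1.33 in the BE(2)C libraries and 15.4, 10.4 and 13.6 in the SH-SY5Y libraries. Kelly and BE(2)C overlapped, and every one of their libraries lay below every SH-SY5Y library. GDF15 was lower than in SH-SY5Y by -2.04 ± 0.25 on the log2 scale in Kelly (adjusted p = 1.17e-04) and by -2.41 ± 0.25 in BE(2)C (adjusted p = 3.3e-05), and the difference of 0.38 between Kelly and BE(2)C was not called (adjusted p = 0.236).

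GADD45A, a damage-induced gene of arrest and demethylation, had 73.8, 47.8 and 59.9 scaled TPM in the Kelly libraries, 26.8, 48.3 and 51.4 in the BE(2)C libraries and 83.0, 92.1 and 72.4 in the SH-SY5Y libraries. BE(2)C lay below SH-SY5Y without overlap, and Kelly overlapped both. It was lower in BE(2)C than in SH-SY5Y by -1.001 ± 0.24 on the log2 scale (adjusted p = 0.00626). In Kelly the value of -0.46 was not called (adjusted p = 0.144), except without BE(2)C 1 (adjusted p = 0.0377) and in both alternative scalings named above (-0.59 with library totals alone, -1.06 as deposited).

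PLK2 and PLK3 encode stress-responsive polo-like kinases. PLK2, whose promoter decamer is printed above, ran from 12.5 to 26.1 scaled TPM over the 9 libraries and was higher in Kelly than in SH-SY5Y by 0.87 ± 0.11 on the log2 scale (adjusted p = 1.19e-04) and higher than in BE(2)C by 0.65 ± 0.11 (adjusted p = 8.53e-04). With values as deposited the first of these was 0.15 (adjusted p = 0.28). PLK3 ran from 0.186 to 12.2 scaled TPM and was called in no comparison. Its Kelly libraries alone had 8.30, 4.60 and 0.186 scaled TPM, and without Kelly 1 the value of -1.40 in Kelly against SH-SY5Y became a call of -2.02 (adjusted p = 0.0191). In BE(2)C against SH-SY5Y the value of -0.92 became a call without Kelly 3 (adjusted p = 0.0183) and with only the compared lines fitted (adjusted p = 0.0147). As deposited PLK3 was called lower than in SH-SY5Y at -0.92 in Kelly (adjusted p = 0.00121) and -0.79 in BE(2)C (adjusted p = 0.0032).

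CD82, a tetraspanin gene known as a metastasis suppressor, was low in all lines. It had 3.40, 1.44 and 2.61 scaled TPM in the Kelly libraries, 0.187, 0.936 and 0.0404 in the BE(2)C libraries and 1.19, 3.26 and 0.164 in the SH-SY5Y libraries. Kelly lay above BE(2)C without overlap, and SH-SY5Y overlapped both. The difference of 1.34 ± 0.46 between Kelly and BE(2)C on the log2 scale was called (adjusted p = 0.0339), and ended without Kelly 1, Kelly 3, BE(2)C 1 or BE(2)C 3 (adjusted p = 0.0815 to 0.105). It also ended as deposited, with quantile normalization and with no filter (adjusted p = 0.132, 0.0527 and 0.0525). Against SH-SY5Y, CD82 became a call of 1.08 in Kelly without SH-SY5Y 2 (adjusted p = 0.0497) and of -1.19 in BE(2)C without SH-SY5Y 3 (adjusted p = 0.0343).

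**Figure D3:**
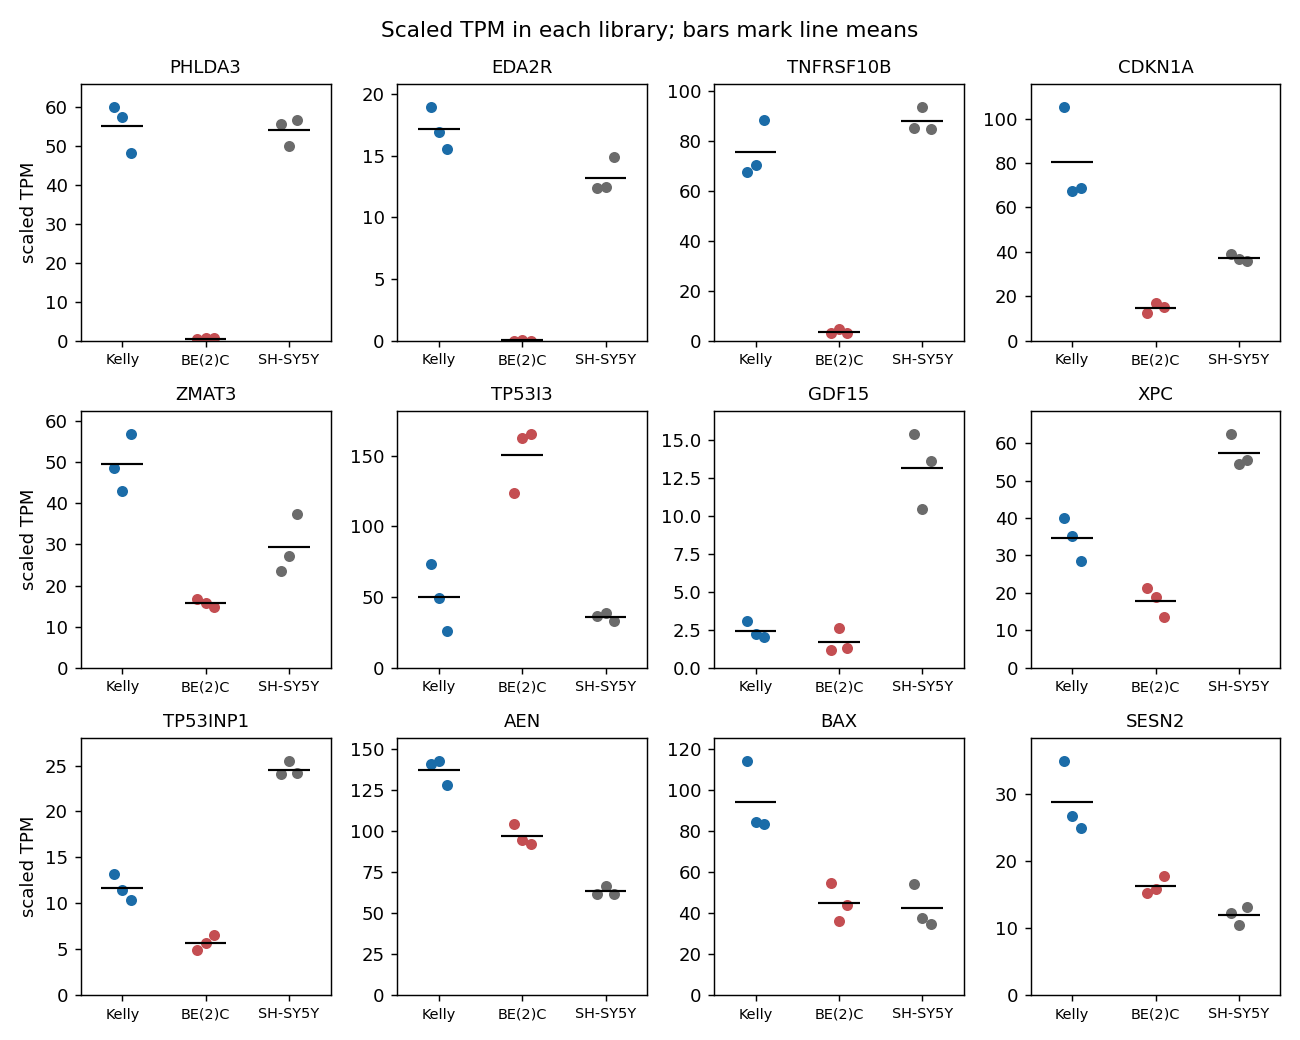
Scaled TPM of 12 of the genes in each library (points), with line means (bars) for Kelly, BE(2)C and SH-SY5Y, on linear axes that start at 0. PHLDA3, EDA2R and TNFRSF10B are near 0 in BE(2)C alone, CDKN1A and ZMAT3 run from Kelly down through SH-SY5Y to BE(2)C, and TP53I3 is highest in BE(2)C.

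Among the 10 tested genes of apoptosis and death receptors, 4 were called higher and 2 lower in Kelly than in SH-SY5Y, 3 higher and 4 lower in BE(2)C than in SH-SY5Y, and 8 higher and none lower in Kelly than in BE(2)C. The shares called higher were 40%, 30% and 80%, against 28.1%, 28.6% and 27.9% of all genes. Those called lower were 20%, 40% and 0%, against 27.2%, 30.7% and 24.6%. The largest differences of all 30 genes were here, in PHLDA3, TNFRSF10B and EDA2R, which were far lower in BE(2)C than in both other lines. PHLDA3 (chr1:201464383-201469237, minus strand) encodes a pleckstrin-homology protein that holds Akt off the membrane. It had 60.1, 57.4 and 48.3 scaled TPM in the Kelly libraries, 0.345, 0.594 and 0.604 in the BE(2)C libraries and 55.6, 50.03 and 56.7 in the SH-SY5Y libraries. Kelly and SH-SY5Y overlapped and no BE(2)C library reached 1 scaled TPM. Values so near 0 in 1 line may be failed estimates, as said above for TUBB. PHLDA3 was lower in BE(2)C than in SH-SY5Y by -5.19 ± 0.14 on the log2 scale (adjusted p = 1.33e-08) and higher in Kelly than in BE(2)C by 5.21 ± 0.14 (adjusted p = 2.48e-08). Between Kelly and SH-SY5Y it differed by 0.03 ± 0.14 (adjusted p = 0.894), and by -0.61 with values as deposited (adjusted p = 5.55e-04). PHLDA3 shares 598 exon bases with a non-coding RNA on the same strand that has no row in the table.

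TNFRSF10B encodes the death receptor DR5, which binds TRAIL at the cell surface. It had 67.5, 70.3 and 88.3 scaled TPM in the Kelly libraries, 2.98, 4.55 and 3.05 in the BE(2)C libraries and 85.3, 93.6 and 84.6 in the SH-SY5Y libraries. Kelly overlapped SH-SY5Y, and BE(2)C lay far below both. The log2 fold change was -4.31 ± 0.15 in BE(2)C against SH-SY5Y (adjusted p = 5.26e-08) and 4.08 ± 0.15 in Kelly against BE(2)C (adjusted p = 1.3e-07). TNFRSF10B differed by -0.23 ± 0.15 between Kelly and SH-SY5Y (adjusted p = 0.246), and by -0.86 with values as deposited (adjusted p = 6.07e-04). It shares 67 exon bases with RHOBTB2 on the opposite strand.

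EDA2R (chrX:66595637-66639298, minus strand) encodes a receptor for ectodysplasin A2 in the same receptor family. It had 18.9, 16.9 and 15.5 scaled TPM in the Kelly libraries, was listed at 0, 0.0761 and 0 in the BE(2)C libraries and had 12.3, 12.4 and 14.9 in the SH-SY5Y libraries. Kelly lay above SH-SY5Y without overlap, but their difference of 0.35 ± 0.16 on the log2 scale was not called (adjusted p = 0.0921). It was called higher with quantile normalization (0.48, adjusted p = 0.0312) and without the variance trend (adjusted p = 0.027), and turned to a call of -0.23 with values as deposited (adjusted p = 0.0462). It was lower in BE(2)C than in SH-SY5Y by -3.79 ± 0.16 (adjusted p = 1.21e-07), and higher in Kelly than in BE(2)C by 4.14 ± 0.16 (adjusted p = 1.46e-07). The BE(2)C values, at or near 0, may be failed estimates, and these sizes depend on the number added before taking logs. With 0.1 in place of 1 they were -6.78 and 7.15, and those of PHLDA3 were -6.49 and 6.52.

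BAX encodes the protein that opens pores in the outer mitochondrial membrane. It had 114, 84.2 and 83.3 scaled TPM in the Kelly libraries, 54.6, 36.0 and 43.9 in the BE(2)C libraries and 54.0, 37.7 and 34.7 in the SH-SY5Y libraries. BE(2)C and SH-SY5Y overlapped and every Kelly library lay above both. BAX was higher in Kelly than in SH-SY5Y by 1.15 ± 0.21 on the log2 scale (adjusted p = 0.00119) and higher than in BE(2)C by 1.05 ± 0.21 (adjusted p = 0.0021). The first of these was 0.40 with values as deposited and not called (adjusted p = 0.0708). APAF1, the scaffold of the apoptosome, ran from 6.97 to 21.2 scaled TPM. It was called lower in Kelly than in SH-SY5Y, at -0.72 ± 0.25 (adjusted p = 0.0333), a call that ended without Kelly 3, SH-SY5Y 2 or SH-SY5Y 3 (adjusted p = 0.11, 0.12 and 0.0584). In BE(2)C against SH-SY5Y it was called lower with library totals alone (-0.77, adjusted p = 0.0254) and as deposited (-0.64, adjusted p = 0.0061). APAF1 shares 750 exon bases with ANKS1B on the opposite strand.

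AEN, SPATA18 and TRIAP1 shared the order Kelly, BE(2)C, SH-SY5Y without overlap and were called in all 3 comparisons. AEN, a nuclease that cuts DNA during apoptosis and whose promoter decamer is printed above, had 141, 142 and 128 scaled TPM in the Kelly libraries, 104, 94.4 and 91.8 in the BE(2)C libraries and 61.6, 66.2 and 61.6 in the SH-SY5Y libraries. SPATA18, a gene of mitochondrial quality control, had 6.46, 6.84 and 7.57 in the Kelly libraries, 3.19, 3.33 and 3.99 in the BE(2)C libraries and 2.13, 2.11 and 1.75 in the SH-SY5Y libraries. The log2 fold change against SH-SY5Y was 1.105 ± 0.08 for AEN and 1.41 ± 0.16 for SPATA18 in Kelly, and 0.61 ± 0.08 and 0.59 ± 0.16 in BE(2)C. TRIAP1, which encodes a small mitochondrial protein that limits apoptosis, ran from 59.8 to 105 scaled TPM and differed by 0.73 ± 0.07 in Kelly (adjusted p = 2.59e-05) and 0.46 ± 0.07 in BE(2)C (adjusted p = 4.22e-04). The calls in BE(2)C ended with library totals alone, at 0.15 for AEN, 0.25 for SPATA18 and 0.01 for TRIAP1 (adjusted p = 0.25, 0.244 and 0.934). They also ended as deposited, at 0.04, 0.06 and -0.09 (adjusted p = 0.812, 0.488 and 0.54). In Kelly against SH-SY5Y the call of TRIAP1 ended with values as deposited, at 0.02 (adjusted p = 0.874). Kelly was higher than BE(2)C by 0.50 ± 0.08 for AEN, 0.82 ± 0.16 for SPATA18 and 0.27 ± 0.07 for TRIAP1. As deposited these calls ended for AEN (0.33, adjusted p = 0.0565) and TRIAP1 (0.12, adjusted p = 0.484).

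TP53INP1, whose nuclear protein promotes apoptosis and autophagy, was highest in SH-SY5Y. It had 13.2, 11.4 and 10.3 scaled TPM in the Kelly libraries, 4.93, 5.62 and 6.50 in the BE(2)C libraries and 24.04, 25.5 and 24.2 in the SH-SY5Y libraries, with no overlap. It was lower than in SH-SY5Y by -1.02 ± 0.15 on the log2 scale in Kelly (adjusted p = 3.37e-04) and by -1.94 ± 0.15 in BE(2)C (adjusted p = 4.54e-06). All 3 of its calls, with Kelly higher than BE(2)C by 0.92 ± 0.15 (adjusted p = 7.08e-04), held in all 19 alternatives run.

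RPS27L, a ribosomal protein-like gene, ran from 38.8 to 102 scaled TPM, overlapped between all lines and was called in no comparison, although without BE(2)C 2 it was higher in Kelly than in BE(2)C by 0.84 (adjusted p = 0.0448). With library totals alone that difference was also called (0.80, adjusted p = 0.0495). As deposited RPS27L was called lower in BE(2)C than in SH-SY5Y (-0.78, adjusted p = 0.0375). Its values are uncertain, because it has a close paralog, RPS27, at 2638 ± 31.3 scaled TPM for Kelly, 2852 ± 314 for BE(2)C and 4232 ± 264 for SH-SY5Y (SD, n = 3 each). PERP was listed at 0 in 6 of the 9 libraries and did not pass 0.122 scaled TPM in the others.

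Of the 4 genes of DNA repair and nucleotide supply, 1 was called higher and 1 lower against SH-SY5Y in Kelly as in BE(2)C: POLH was the higher and XPC the lower in both. Each share is 25%, near those of all genes, 28.1% and 27.2% for Kelly and 28.6% and 30.7% for BE(2)C. XPC, which finds distorted DNA for nucleotide excision repair, had 40.02, 35.1 and 28.6 scaled TPM in the Kelly libraries, 21.2, 18.9 and 13.6 in the BE(2)C libraries and 62.4, 54.5 and 55.5 in the SH-SY5Y libraries. The lines did not overlap, and BE(2)C was lowest. XPC was lower than in SH-SY5Y by -0.73 ± 0.17 on the log2 scale in Kelly (adjusted p = 0.00599) and by -1.65 ± 0.17 in BE(2)C (adjusted p = 3.52e-05), and Kelly and BE(2)C differed by 0.92 ± 0.17 (adjusted p = 0.00172). All 3 calls held in all 19 alternatives, and XPC shares 318 exon bases with LSM3 on the opposite strand.

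POLH, the polymerase that copies past ultraviolet lesions, ran from 16.8 to 36.9 scaled TPM. It was called higher than in SH-SY5Y by 0.81 ± 0.12 on the log2 scale in Kelly (adjusted p = 4.17e-04) and 0.55 ± 0.12 in BE(2)C (adjusted p = 0.00361). The first call ended with values as deposited (0.09, adjusted p = 0.57). The second ended with library totals alone (0.11, adjusted p = 0.55) and as deposited (-0.0042, adjusted p = 0.983). DDB2, which recognises ultraviolet damage and holds the only pair of decamers in its window, ran from 0.14 to 6.69 scaled TPM with wide spread in every line and was called in no comparison. Without BE(2)C 3, where it had 4.77 scaled TPM against 0.243 and 0.14 in the other BE(2)C libraries, DDB2 was called lower in BE(2)C than in SH-SY5Y at -1.92 (adjusted p = 0.0213). RRM2B, the p53-inducible subunit of ribonucleotide reductase, ran from 9.47 to 13.99 scaled TPM and was called in no comparison. RRM2B was higher in Kelly than in BE(2)C by 0.44 without Kelly 3 (adjusted p = 0.0421), and with values as deposited it was lower in Kelly than in SH-SY5Y by -0.45 (adjusted p = 0.00582). It was also called lower in BE(2)C than SH-SY5Y with library totals alone (-0.72, adjusted p = 0.00563) and as deposited (-0.55, adjusted p = 0.0018), and higher in Kelly than in BE(2)C with library totals alone (0.60, adjusted p = 0.0176).

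The 4 redox and metabolic genes each had their own order of line means, with 1 called higher and 1 lower in Kelly than in SH-SY5Y, 2 higher and 1 lower in BE(2)C than in SH-SY5Y, and 3 higher and 1 lower in Kelly than in BE(2)C. The shares called higher were 25%, 50% and 75%, against 28.1%, 28.6% and 27.9% of all genes. Those called lower were 25% in each, against 27.2%, 30.7% and 24.6%. TP53I3 (chr2:24077433-24085861, minus strand) encodes a quinone oxidoreductase linked to reactive oxygen, and was the single gene highest in BE(2)C. It had 73.3, 49.6 and 26.3 scaled TPM in the Kelly libraries, 124, 162 and 165 in the BE(2)C libraries and 36.3, 38.6 and 33.1 in the SH-SY5Y libraries. BE(2)C lay above both other lines without overlap, and the Kelly libraries were widely spread around the SH-SY5Y level. TP53I3 was higher in BE(2)C than SH-SY5Y by 2.02 ± 0.30 on the log2 scale (adjusted p = 3.43e-04) and lower in Kelly than in BE(2)C by -1.68 ± 0.30 (adjusted p = 0.00133). Both held in all 19 alternatives run, and TP53I3 was the single gene called higher in BE(2)C than SH-SY5Y with library totals alone (1.57) and with values as deposited (1.34). In Kelly against SH-SY5Y the value was 0.34 ± 0.30 (adjusted p = 0.371), and 0.73 without Kelly 3 (adjusted p = 0.0113). TP53I3 shares 80 exon bases with FAM228B on the opposite strand.

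SESN1 and SESN2 encode sestrins, which restrain mTORC1 and oxidative stress, and their lines were ordered differently. SESN1, with a promoter decamer, ran from 13.3 to 27.98 scaled TPM and was highest in SH-SY5Y. It was lower than in SH-SY5Y by -0.48 ± 0.11 on the log2 scale in Kelly (adjusted p = 0.00527) and by -0.85 ± 0.11 in BE(2)C (adjusted p = 1.48e-04). Kelly was higher than BE(2)C by 0.37 ± 0.11 (adjusted p = 0.0196), a call that ended without Kelly 1 or BE(2)C 2 (adjusted p = 0.0535 and 0.0546). It also ended as deposited, with quantile normalization and with only the compared lines fitted (adjusted p = 0.289, 0.0586 and 0.0516).

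SESN2 was highest in Kelly. It had 34.96, 26.8 and 25.01 scaled TPM in the Kelly libraries, 15.2, 15.9 and 17.8 in the BE(2)C libraries and 12.3, 10.5 and 13.2 in the SH-SY5Y libraries. The lines did not overlap. SESN2 was higher in Kelly than in SH-SY5Y by 1.195 ± 0.16 on the log2 scale (adjusted p = 1.63e-04) and higher than in BE(2)C by 0.78 ± 0.16 (adjusted p = 0.0024). Its smaller difference of 0.42 ± 0.16 between BE(2)C and SH-SY5Y (adjusted p = 0.0425) ended without Kelly 2, any BE(2)C library, SH-SY5Y 1 or SH-SY5Y 2 (adjusted p = 0.053 to 0.136), and turned to -0.01 with library totals alone.

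FDXR, the mitochondrial reductase that feeds electrons to ferredoxin, was low. It had 6.09, 1.16 and 4.08 scaled TPM in the Kelly libraries, 0.454, 0.384 and 0 in the BE(2)C libraries and 2.11, 0.543 and 1.96 in the SH-SY5Y libraries. Kelly and SH-SY5Y overlapped, and BE(2)C lay below both. FDXR was higher in Kelly than in BE(2)C by 1.76 ± 0.44 on the log2 scale (adjusted p = 0.00819) and was not called against SH-SY5Y in Kelly (0.82, adjusted p = 0.145) or in BE(2)C (-0.94, adjusted p = 0.0936). It became a call in Kelly without Kelly 2 (1.31, adjusted p = 0.0141), and in BE(2)C without Kelly 2 or SH-SY5Y 2 (adjusted p = 0.0303 and 0.0453). It was also called lower in BE(2)C with library totals alone (adjusted p = 0.0467), with 0.1 added before taking logs (-2.26, adjusted p = 0.0448) and with only the compared lines fitted (adjusted p = 0.0373).

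The pattern of calls over the 3 comparisons was not shared by all targets. The shares of all genes with each pattern were not computed, so the pattern counts only describe these genes. SESN2, AEN, BTG2, SPATA18 and TRIAP1 were the 5 genes called higher in Kelly than in both other lines and higher in BE(2)C than SH-SY5Y. Another 5, RRM2B, DDB2, PLK3, CCNG1 and RPS27L, were called in no comparison. SESN1, XPC and TP53INP1 were the 3 genes lower in both amplified lines than in SH-SY5Y and higher in Kelly than in BE(2)C. PHLDA3, EDA2R and TNFRSF10B were lower in BE(2)C than in both others, with no call between Kelly and SH-SY5Y. The calls of lower level in BE(2)C than in SH-SY5Y held in every alternative for 10 of 10 genes, and those of higher level for 1 of 7. In Kelly against BE(2)C, 13 of the 19 calls of higher level did so, and in Kelly against SH-SY5Y 6 of 12 calls of higher level and 4 of 5 of lower level. The all-gene median in BE(2)C against SH-SY5Y moved from -0.04 to -0.44 with library totals alone and -0.35 as deposited. In Kelly against SH-SY5Y it moved to -0.13 and -0.43. Such shifts favour calls of lower level, so these counts cannot compare how firm the higher and lower calls are.

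The genes upstream of and beside p53 were described with a list of 36 regulators and partners, of which 34 were tested. In Kelly against SH-SY5Y, 17 were called higher and 5 lower, with a median log2 fold change of 0.25. In BE(2)C against SH-SY5Y, 11 were called higher and 9 lower (median -0.01), and in Kelly against BE(2)C 11 higher and 8 lower (median 0.10). For Kelly against SH-SY5Y these are 50% higher and 14.7% lower, where 28.1% and 27.2% of all genes were. The shares lay nearer those of all genes for BE(2)C against SH-SY5Y, at 32.4% and 26.5% against 28.6% and 30.7%, and for Kelly against BE(2)C, at 32.4% and 23.5% against 27.9% and 24.6%. The direction of these counts depended on the scaling: as deposited, 3 were called higher and 20 lower in Kelly than in SH-SY5Y, and with library totals alone 6 higher and 15 lower in BE(2)C than in SH-SY5Y. Of all 13076 genes, 1324 were called higher and 7457 lower in Kelly as deposited. In BE(2)C with library totals alone, these numbers were 1905 and 6099. EP300, the acetyltransferase and coactivator of p53, averaged 81.0 ± 2.39 scaled TPM for Kelly, 57.6 ± 5.62 for BE(2)C and 28.8 ± 1.21 for SH-SY5Y (SD, n = 3 each), 1.46 ± 0.09 higher in Kelly than in SH-SY5Y on the log2 scale. HIPK2, a kinase that phosphorylates p53 towards apoptosis, averaged 53.8 ± 4.38 for Kelly, 13.98 ± 2.63 for BE(2)C and 69.0 ± 4.26 for SH-SY5Y, and was lower in BE(2)C than in SH-SY5Y by -2.24 ± 0.14 (adjusted p = 1.03e-06). PPP1R13B, which encodes the p53 cofactor ASPP1, went the other way, with 23.6 ± 1.85 for Kelly, 71.0 ± 7.38 for BE(2)C and 10.3 ± 0.835 for SH-SY5Y, and a log2 fold change of 2.67 ± 0.12 in BE(2)C against SH-SY5Y.

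SETD7, a lysine methyltransferase of p53 and histones, was higher than in SH-SY5Y in both amplified lines, by 1.26 ± 0.09 on the log2 scale in Kelly and 1.501 ± 0.09 in BE(2)C. TP73, a p53 relative, was lower in Kelly than in SH-SY5Y by -1.84 ± 0.20 (adjusted p = 5.58e-05). PPP1R13L, which encodes the inhibitor iASPP, was lower in both, by -1.25 ± 0.44 in Kelly (adjusted p = 0.036, and 0.053 after quantile normalization) and -1.87 ± 0.44 in BE(2)C (adjusted p = 0.00495). TRIM28, a corepressor that works with MDM2, was higher in Kelly than in BE(2)C by 1.78 ± 0.12, as was SMYD2, a methyltransferase that represses p53, by 1.36 ± 0.24 (adjusted p = 0.00134).

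A second list held 87 other p53 targets, of which 68 were tested. Of these, 20 were called higher and 19 lower in Kelly than in SH-SY5Y, 16 higher and 19 lower in BE(2)C than in SH-SY5Y, and 20 higher and 10 lower in Kelly than in BE(2)C. Their medians were -0.07, -0.10 and 0.01 in those 3 comparisons. The shares called higher, 29.4%, 23.5% and 29.4%, are set against 28.1%, 28.6% and 27.9% of all genes, and the share called lower in Kelly than in BE(2)C was 14.7% against 24.6%. As deposited, 7 were called higher and 41 lower in Kelly, and 7 higher and 38 lower in BE(2)C, than in SH-SY5Y. Of all 13076 genes, 1324 and 7457 were then called higher and lower in Kelly, and 1547 and 6639 in BE(2)C. With library totals alone the counts were 12 higher and 24 lower in Kelly and 10 higher and 34 lower in BE(2)C than in SH-SY5Y, and 30 higher and 4 lower in Kelly than in BE(2)C. In the same order of comparisons, 41.6%, 23.8% and 74.2% of the calls over all genes were then higher. The list medians of -0.20, -0.49 and 0.29 lay near the -0.13, -0.44 and 0.31 of all genes. PGF, a placental growth factor gene, was higher in Kelly than in SH-SY5Y by 3.56 ± 0.19 on the log2 scale. FUCA1, a lysosomal fucosidase gene, averaged 0.475 ± 0.3 scaled TPM for Kelly, 0.602 ± 0.253 for BE(2)C and 16.3 ± 3.34 for SH-SY5Y (SD, n = 3 each). It was lower than in SH-SY5Y by -3.55 ± 0.23 in Kelly and by -3.42 ± 0.23 in BE(2)C. PTPRE, a receptor tyrosine phosphatase gene, and RAP2B, a small GTPase gene, were also lower in both, at -2.73 ± 0.18 and -2.21 ± 0.16 in Kelly and at -4.05 ± 0.18 and -2.87 ± 0.16 in BE(2)C. In BE(2)C, PTPRE averaged 0.18 and RAP2B 0.91 scaled TPM. Values so near 0, also those of FUCA1, may be failed estimates, and these sizes depend on the number added before taking logs.

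CYFIP2, a gene of the actin-regulating WAVE complex, was lower in BE(2)C than in SH-SY5Y by -3.70 ± 0.21 on the log2 scale. It averaged 0.756 scaled TPM in BE(2)C, which may also be a failed estimate. Between the amplified lines, ENC1, an actin-binding gene of neural cells, was lower in Kelly than in BE(2)C by -3.23 ± 0.16. LRP1, an endocytic receptor gene, was higher in Kelly than in BE(2)C by 2.19 ± 0.13, VWCE by 3.10 ± 0.55 (adjusted p = 0.00127) and HSPA4L, a chaperone gene, by 1.90 ± 0.39 (adjusted p = 0.00306).

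The third list held 30 cell-cycle genes that p21 and the DREAM complex repress, all of them tested. In Kelly against SH-SY5Y 19 were called higher and 3 lower, and in BE(2)C against SH-SY5Y also 19 higher and 3 lower, with medians of 0.44 and 0.37. In Kelly against BE(2)C, 10 were called higher and 9 lower (median -0.06). The shares against SH-SY5Y were 63.3% higher and 10% lower for each amplified line, where 28.1% and 27.2% of all genes were called for Kelly and 28.6% and 30.7% for BE(2)C. For Kelly against BE(2)C they were 33.3% and 30%, near the 27.9% and 24.6% of all genes. With library totals alone these counts were 13 higher and 3 lower in Kelly and 9 higher and 6 lower in BE(2)C than in SH-SY5Y, and 13 higher and 2 lower in Kelly than in BE(2)C. The share of all-gene calls that were higher was then 41.6% in Kelly against SH-SY5Y and 23.8% in BE(2)C against SH-SY5Y. It was 74.2% in Kelly against BE(2)C. As deposited the counts of this list were 2 higher and 10 lower in Kelly, and 7 and 7 in BE(2)C, against SH-SY5Y. Among the 13076 genes tested, 1324 were then called higher and 7457 lower in Kelly, and 1547 and 6639 in BE(2)C. The list medians were then -0.245 in Kelly and -0.13 in BE(2)C, above the -0.43 and -0.35 of all genes. CDKN1A, the p21 gene, was higher in Kelly and lower in BE(2)C than in SH-SY5Y, as given above. A relation between its level and these cell-cycle genes was not tested. The equal counts on scaled TPM in both comparisons need not be the same genes, and both comparisons share the SH-SY5Y libraries. AURKA, a mitotic kinase gene, was higher than in SH-SY5Y by 1.52 ± 0.16 on the log2 scale in Kelly and 1.29 ± 0.16 in BE(2)C. MCM5, a subunit of the replicative helicase, was higher in Kelly than in SH-SY5Y by 1.40 ± 0.06 and CDC25C, the phosphatase that starts mitosis, by 1.23 ± 0.33 (adjusted p = 0.0118, and 0.128 as deposited). PLK1 and CCNB1, the genes of polo-like kinase and cyclin B, were higher in BE(2)C than SH-SY5Y by 1.39 ± 0.10 and 1.29 ± 0.13.

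CHEK1, the checkpoint kinase that is also in the list of regulators, averaged 9.73 ± 2.14 scaled TPM for Kelly, 22.8 ± 4.27 for BE(2)C and 22.3 ± 2.67 for SH-SY5Y (SD, n = 3 each). It was lower in Kelly than in SH-SY5Y by -1.13 ± 0.19 on the log2 scale and lower than in BE(2)C by -1.15 ± 0.19. RAD54L, a recombination gene, averaged 37.8 ± 4.52 for Kelly, 14.9 ± 6.23 for BE(2)C and 45.9 ± 6.43 for SH-SY5Y, and was lower in BE(2)C than in SH-SY5Y by -1.64 ± 0.27. Kelly was higher than BE(2)C in RAD54L by 1.37 ± 0.27, in FANCD2, a gene of crosslink repair, by 1.24 ± 0.16, and in NEK2, a centrosome kinase gene, by 0.96 ± 0.20.

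**Figure D4:**
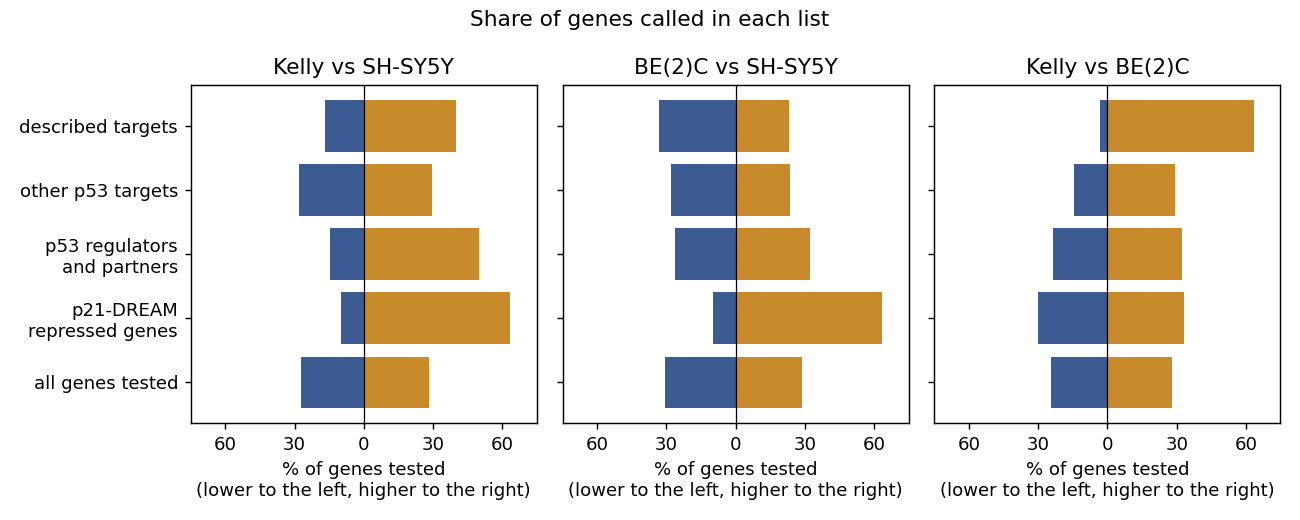
Share of tested genes called higher (right of 0) and lower (left of 0) in each of 3 comparisons, in percent, for the 30 p53 targets described, 68 other targets, 34 regulators and partners, 30 genes repressed through p21 and DREAM, and all 13076 genes tested, on scaled TPM. The described targets have 63.3% called higher in Kelly against BE(2)C, against 27.9% of all genes, and the other targets have 29.4%.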

How the data were processed

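Polyadenylated RNA was measured in 9 libraries of 3 lines, grouped by the line in their titles. The deposited table holds log10 values, read from the values themselves as log10(TPM + 1), so the authors' TPM were recovered by back-transforming; per the submitters' processing notes, HISAT 0.1.6, Salmon 0.3.2 and GRCh38 were used. The step from transcripts to genes is not given in these sources. TPM keep no depth, so precision is given by the spread of libraries alone. No column of values was left unused. The 92 ERCC spike-ins, 11 reporter or selection markers and 28 date-like names were left out of the tests, the spike-ins and markers also out of the totals. Gene values were rescaled to their own total and divided by an unweighted trimmed-mean factor (0.758 to 1.17; trimming 30% of ratios and 5% of levels from either end, over genes with at least 1 in both). limma 3.58.1 with its trend option (R 4.3.3) was run on log2(scaled TPM + 1), in 1 fit of all 9 libraries, for the 13076 genes that reached 1 in 3 or more libraries. Fold changes on this scale understate the change of low genes. Adjusted p-values are Benjamini-Hochberg over all genes tested, two-sided. The script was tested on simulated data.

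The genes and lists were chosen with earlier results of these data known. A gene has its value in every library where it was called with a log2 fold change of at least 1 in size in any comparison. Up to 4 called genes per list and comparison are named, by size of change, with at least 10 scaled TPM in the higher line. Alternatives were library totals alone, values as deposited, mitochondrial genes left out, quantile normalization, a pseudocount of 0.1, no filter, a minimum of 5, no trend, only the lines compared, the replicate number as a block, and each library left out. Positions are from GENCODE 29, promoters from RefSeq.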

Additional observations from a re-analysis of the deposited data

Results flagged for a closer look

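2 genes were called in opposite directions in the amplified lines against the same SH-SY5Y libraries, and the difference between the amplified lines was itself called. How many of all genes tested were called in this way was not computed. CDKN1A, the p21 gene, differed by 2.34 ± 0.18 on the log2 scale between Kelly and BE(2)C (limma, adjusted p = 7.1e-06), with 80.4 ± 21.6 scaled TPM for Kelly, 14.8 ± 2.43 for BE(2)C and 37.1 ± 1.60 for SH-SY5Y (SD, n = 3 each). ZMAT3 differed by 1.59 ± 0.17 (adjusted p = 5.98e-05), with 49.5 ± 6.95 for Kelly, 15.7 ± 0.996 for BE(2)C and 29.4 ± 7.21 for SH-SY5Y. In each gene all 3 Kelly libraries lay above and all 3 BE(2)C libraries below every SH-SY5Y library. With values as deposited the Kelly call of ZMAT3 against SH-SY5Y ended (0.05, adjusted p = 0.825).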

How the results depend on the processing

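The counts of p53 targets called depended on the scaling. In Kelly against SH-SY5Y, 12 higher and 5 lower became 6 and 12 with values as deposited. In BE(2)C against SH-SY5Y, 7 higher and 10 lower became 1 and 16 with library totals alone, and 1 and 17 as deposited. Over all genes, the median log2 fold change in Kelly against SH-SY5Y, BE(2)C against SH-SY5Y and Kelly against BE(2)C was then -0.13, -0.44 and 0.31 with library totals alone and -0.43, -0.35 and -0.05 as deposited. The share of all calls that were higher, 50.8%, 48.2% and 53.2%, was 41.6%, 23.8% and 74.2% with library totals alone and 15.1%, 18.9% and 43.2% as deposited. The spike-ins were compared after each library was centred on its own spike-in median. Of 61 abundant spike-ins, 50 differed in Kelly against SH-SY5Y and 54 in Kelly against BE(2)C (largest shifts 1.42 and 1.24 on the log2 scale). None differed in BE(2)C against SH-SY5Y (largest shift 0.181). Their part in the result was not tested.

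The signs of some genes turned with the scaling. In Kelly against SH-SY5Y as deposited, MDM2 was -0.30, PHLDA3 -0.61, EDA2R -0.23, RRM2B -0.45 and CCNG1 -0.51. In BE(2)C against SH-SY5Y with library totals alone, MDM2 was -0.45, SESN2 -0.012 and CCNG1 -0.40, and as deposited MDM2 was -0.48, SESN2 -0.085, POLH -0.0042, CCNG1 -0.45 and TRIAP1 -0.094. TP53I3 (-0.30) and RPS27L (-0.49) also turned in Kelly against SH-SY5Y as deposited, without a call. Some uncalled values changed sign under quantile normalization or with 1 library left out as well, for example PHLDA3, RRM2B and RPS27L in Kelly against SH-SY5Y.

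Leaving out 1 library gave 11 to 13 genes higher and 4 to 6 lower in Kelly against SH-SY5Y, 6 to 7 and 10 to 12 in BE(2)C against SH-SY5Y, and 15 to 19 and 1 in Kelly against BE(2)C. The other alternatives kept every count within 1.5 times. The labels number the libraries 1 to 3 in each line, but same-numbered libraries did not deviate together (correlations -0.0545 to 0.0266). With the replicate block the counts were 11 and 4, 6 and 10, and 18 and 1, and the calls of MDM2 in Kelly against both lines, APAF1 in Kelly against SH-SY5Y and SESN2 in BE(2)C against SH-SY5Y were lost. Unknown depth and few libraries limit the genes near 0.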
